A study of Mus musculus with 6 samples.

Results

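The cytosolic ribosomal proteins are the proteins of the small and large subunits of the ribosome that translates nuclear-encoded mRNA. Their genes were taken as the protein-coding entries of the deposited table of differential expression whose symbol was Rpl or Rps followed by a number and an optional letter or digit, plus Rpsa, Rplp0, Rplp1 and Rplp2. The rule found 86 of the 39179 gene identifiers counted, and 84 of them had enough counts to be tested, 35 of the small and 49 of the large subunit. Rpl3l, a copy of Rpl3 known from skeletal and heart muscle, had 0, 0 and 1 counts in the libraries labelled AXL KO and 0, 1 and 1 counts in those labelled WT. Rpl10l, a copy of Rpl10 known from the testis, had 0 counts in all 6 libraries.

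Each ribosome carries a single copy of nearly every ribosomal protein, so cells make the subunits' proteins in matched amounts, and in proliferating tumour cells this is among the most costly of all syntheses. The mRNAs of vertebrate ribosomal proteins start with an uninterrupted run of pyrimidines, the 5′ terminal oligopyrimidine (TOP) motif, through which mTOR signalling and the RNA-binding protein Larp1 control their translation. Ribosomal protein genes are spread over nearly all mouse chromosomes and have many processed pseudogenes, which share sequence with them.

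RNA sequencing counts were available for 6 tumour grafts of MMTV-Neu origin in mice of the FVB strain: 3 libraries labelled AXL KO, from grafts of AXL-/- cells, and 3 labelled WT, from grafts of AXL+/+ cells. MMTV-Neu tumours arise in mice that carry the Neu (Erbb2) oncogene under the mouse mammary tumour virus promoter, which drives it in the mammary epithelium, and both groups share this origin. Axl encodes a receptor tyrosine kinase. The labels do not say whether the grafts came from separate mice or from 1 tumour or line per genotype, so p-values measure the spread between these libraries, which may be technical, and any difference between the 2 sources of cells cannot be told apart from the genotype. A graft also holds host blood, vessels and stroma, and in such bulk tissue fewer cells of a type and less RNA per cell cannot be told apart.

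Counts in genes totalled 26541009 to 32491807 per library. Axl itself had 1360, 2396 and 1767 counts in the libraries labelled AXL KO, against 1906, 1761 and 1507 counts in those labelled WT, so the counts of the targeted gene did not separate the groups and the directions below rest on the labels. Erbb2 had 10020, 8080 and 9523 CPM in AXL KO, against 6868, 7947 and 6765 CPM in WT (CPM, counts scaled to library size), and the epithelial markers Epcam, Krt8 and Krt18 were present in every library, while Krt19 was at or near 0. Markers are called here at an adjusted p below 0.05 in the edgeR test described below. At that threshold 19.1% of all tested genes were higher and 18.3% lower in AXL KO. Of 9 epithelial markers tested, 6 were lower and 2 higher in AXL KO, with summed levels of 11890 to 14090 CPM in AXL KO and 11850 to 13190 CPM in WT. Erbb2 made up most of these sums and was itself higher (log2 fold change of AXL KO over WT 0.36, edgeR adjusted p = 0.026). The overlap of the sums therefore does not describe the 6 lower markers, Cldn4, Epcam, Krt18, Krt8, Elf3 and Cldn3. All 6 erythroid markers were lower (summed 151.6 to 237 CPM in AXL KO and 646.5 to 1022 CPM in WT), as were 8 of 9 endothelial markers (206.4 to 274.5 CPM in AXL KO and 352.5 to 397.2 CPM in WT). Of 12 T cell markers 10 were higher (26.1 to 28.0 CPM in AXL KO and 10.05 to 13.9 CPM in WT). Of the other markers tested, 1 was higher and 1 lower of 11 for macrophages (9.09% each way). For neutrophils 0 of 6 were higher and 1 lower (16.7%), and for fibroblasts 0 of 9 higher and 1 lower (11.1%). For B cells 0 of 2 were called. None of these shares exceeded that of all tested genes. No tested marker of these lists had 0 counts in all 6 libraries, and the part of these cell types in the results below was not tested.

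Ribosomal protein mRNAs made up a smaller share of the counts in the AXL KO libraries. The 86 genes held 2.70%, 2.72% and 2.72% of the counts in genes in the AXL KO libraries, against 3.26%, 2.91% and 3.15% in the WT libraries. The groups did not overlap, the 3 AXL KO libraries were almost alike, and WT 2 was the WT library nearest to them. The means were 2.71 ± 0.0129% in AXL KO and 3.11 ± 0.180% in WT (SD, n = 3 each), a difference of -0.394 percentage points; an exact two-sided permutation test gave p = 0.1, the smallest value that 3 against 3 libraries allow. Each share rests on 777431 to 900716 counts, and its exact 95% binomial interval (Clopper-Pearson), which covers counting error only, was narrower than the spread between WT libraries.

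The difference was seen in both subunits. Small-subunit genes held 1.08 ± 0.00935% of the counts in AXL KO and 1.24 ± 0.0804% in WT, and large-subunit genes held 1.63 ± 0.00351% in AXL KO and 1.87 ± 0.0995% in WT (SD, n = 3 each; exact permutation p = 0.1 for either subunit, two-sided). The ratio of large-subunit to small-subunit counts was 1.505 ± 0.00981 in AXL KO and 1.515 ± 0.0185 in WT, and differed by less than the spread between libraries (exact permutation p = 0.7, two-sided).

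**Figure D1:**
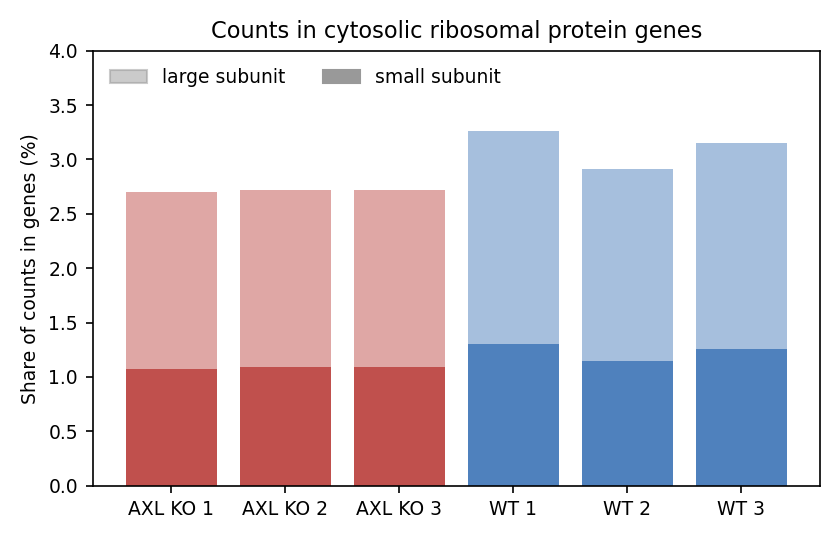
Share of the counts in genes that fell in ribosomal protein genes, in percent (vertical axis), for each library (horizontal axis; AXL KO in red, WT in blue), with small-subunit genes as the dark and large-subunit genes as the pale part of each bar. The 3 AXL KO libraries stand at 2.70% to 2.72% and the WT libraries at 2.91% to 3.26%.

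Gene by gene, 26 of the 84 tested members were lower in AXL KO and 3 were higher at an adjusted p below 0.05 (edgeR quasi-likelihood test, Benjamini-Hochberg adjustment over all 14850 tested genes). That was 31% of the members lower, against 18.3% of all tested genes, and 3.57% higher, against 19.1% of all tested genes. The median log2 fold change (AXL KO over WT) was -0.165 for the members and 0 for all tested genes, and 67 of the 84 members lay below 0. All 3 AXL KO libraries were below all 3 WT libraries in 43 members (51.2%, against 25.2% of all tested genes) and above them in 7 (8.33%, against 26.9%). The large subunit had 16 members lower and 2 higher with a median of -0.18, and the small subunit had 10 lower and 1 higher with a median of -0.13. In the authors' deposited table, whose fold changes run as WT over AXL KO, 28 members were lower and 3 higher in AXL KO at an adjusted p below 0.05, against 16.7% of all genes in either direction.

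The changes were small in size. The 26 decreases ran from -0.65 to -0.22 on the log2 scale, 1.56-fold to 1.17-fold lower. Leaving out WT 3 took the members lower to 16, and the members higher fell to 0 without AXL KO 3, to 1 without AXL KO 1 and to 1 without WT 3. Calls over all tested genes fell in these fits too. Genes lower went from 2717 to 1966 without WT 3. Genes higher went from 2835 to 2000 without AXL KO 3, 2001 without AXL KO 1 and 2051 without WT 3. WT 2 was the lowest of the WT libraries in 72 of the 84 members and in 22 of the 26 that were lower. With the summed counts of the members as the library size, which asks which members moved relative to the others, 9 members were higher and 12 lower, against 30.5% higher and 10.2% lower of all tested genes. The median of all tested genes then stood at 0.163.

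**Figure D2:**
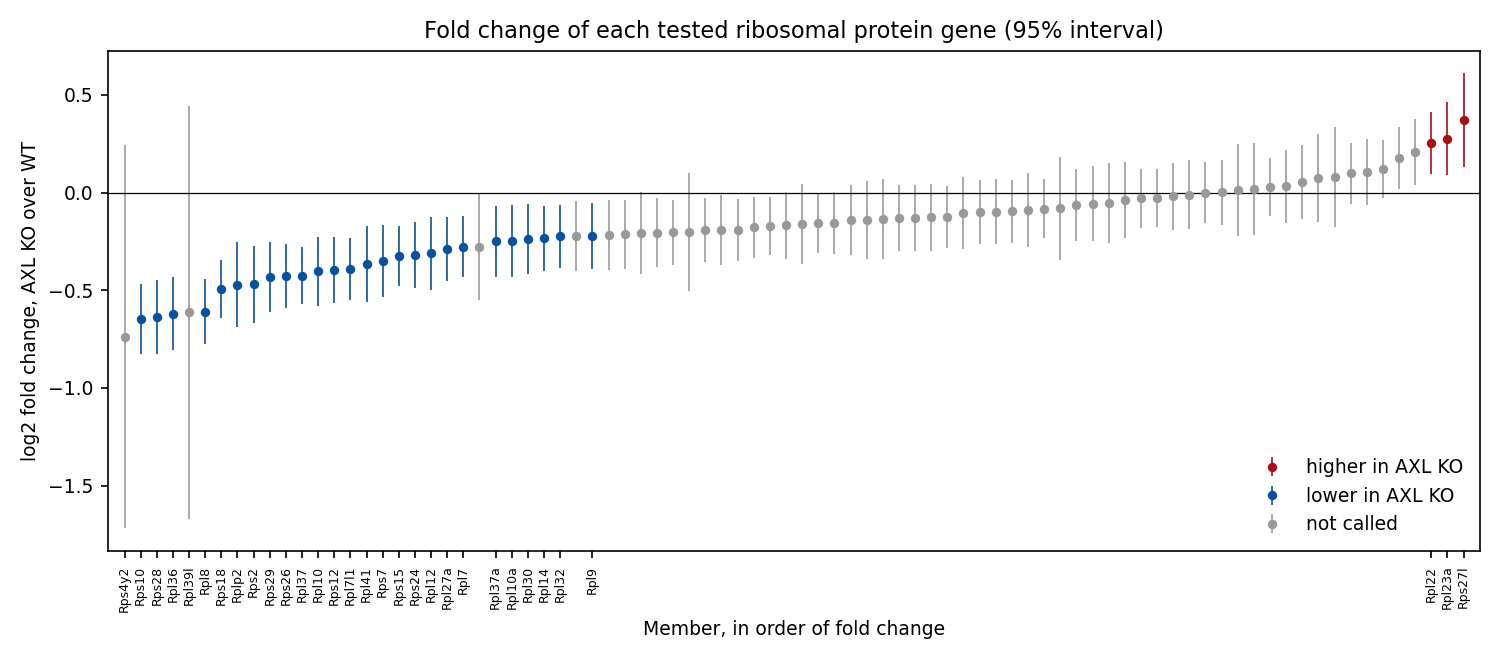
Log2 fold change of AXL KO over WT (vertical axis) for each of the 84 tested ribosomal protein genes in order of size (horizontal axis), with 95% intervals from the edgeR fit; called members and those under 1 CPM are named. The 26 members lower in AXL KO reach from -0.65 to -0.22, the 3 higher ones stand at 0.25 to 0.37, and the wide intervals belong to Rps4y2 and Rpl39l, which had under 1 CPM.

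The annotated starts of the genes were searched for the pyrimidine run of the TOP motif. RefSeq promoter entries (build GRCm38.p6) were matched by symbol for 63 members, and the start sites of 8 of them are shown. These are the 7 of the 10 largest called decreases that have a window (Rps10, Rps28, Rps18, Rplp2, Rps2, Rps26 and Rpl37) and an uncalled member known as the S6 kinase substrate (Rps6). Each window holds 20 bases before and 20 bases from the annotated start, written 5′ to 3′ on the gene's strand, with its longest run of C and T in capitals.
Rps10 (chr17:27635225-27635264, minus strand): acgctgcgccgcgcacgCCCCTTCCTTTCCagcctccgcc
Rps28 (chr17:33824543-33824582, minus strand): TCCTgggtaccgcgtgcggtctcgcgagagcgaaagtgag
Rps18 (chr17:33955646-33955685, minus strand): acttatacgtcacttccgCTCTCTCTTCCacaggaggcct
Rplp2 (chr7:141447631-141447670, plus strand): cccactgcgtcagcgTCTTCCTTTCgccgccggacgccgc
Rps2 (chr17:24720043-24720082, plus strand): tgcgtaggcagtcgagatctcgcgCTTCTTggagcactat
Rps26 (chr10:128626487-128626526, minus strand): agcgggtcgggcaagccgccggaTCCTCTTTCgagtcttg
Rpl37 (chr15:5116593-5116632, plus strand): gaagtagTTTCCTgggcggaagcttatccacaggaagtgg
Rps6 (chr4:86857348-86857387, minus strand): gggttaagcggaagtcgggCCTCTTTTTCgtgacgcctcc
The longest run was 13 letters in Rps10, 11 in Rps18, 10 in Rplp2 and Rps6 and 9 in Rps26. It was 6 letters in Rps2 and Rpl37, and 4 in Rps28. An unbroken run of at least 8 letters, each C or T, on the gene's strand and within 30 bases either side of the start, was present in 35 of the 63 members (55.6%), against 25.8% of the 27025 genes of the table. It was present in 10 of the 20 matched members that were lower, in 1 of 2 that were higher and in 24 of 39 that were not called. The 39 include the entry listed as Rpl24, whose identifier GENCODE M21 names Zbtb11, so its window and its call belong to different genes. Some runs counted lie wholly before the annotated start and so outside the annotated mRNA. The presence or absence of these letters describes the annotated window only.

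Among small-subunit proteins, the largest decreases were in Rps10 and Rps28. Rps10 (chr17:27630418-27636669, GRCm38, positions here and below from GENCODE M21) encodes a protein of the subunit's head, and its run of 13 pyrimidines is shown above. It had 246, 256 and 220.5 CPM in AXL KO, against 371, 365 and 393 CPM in WT. Every AXL KO library was below every WT library. The log2 fold change was -0.65 ± 0.079 (SE; edgeR adjusted p = 0.000458), 1.56-fold lower. Rps28 (chr17:33819027-33824562), whose protein sits near the exit of the mRNA channel, had 169, 146 and 165 CPM in AXL KO, against 237, 245 and 265 CPM in WT. Again the groups did not overlap, with AXL KO 2 lowest of all. The log2 fold change was -0.64 ± 0.083 (SE; edgeR adjusted p = 0.000629).

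Rps18 (chr17:33951999-33956001) encodes a head protein that contacts the large subunit, and Rps2 (chr17:24718116-24721929) a protein at the entrance of the mRNA channel. Rps18 had 233, 238 and 236 CPM in AXL KO, against 335, 322 and 337 CPM in WT. Rps2 had 231, 223 and 219.9 CPM in AXL KO, against 324, 275 and 334 CPM in WT. Both separated the groups fully. The log2 fold change was -0.49 ± 0.065 (SE; edgeR adjusted p = 0.000648) for Rps18 and -0.47 ± 0.087 (SE; edgeR adjusted p = 0.00333) for Rps2. Rps2 shares 79.0% of its transcript's 50-base windows with transcripts of 71 other genes, so reads of its copies may not have been kept apart by the counting.

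Rps29 and Rps26 encode zinc-binding or mRNA-contacting proteins whose human genes are mutated in Diamond-Blackfan anaemia, an inherited failure of red cell production. Rps29 (chr12:69157722-69159186) had 174, 186 and 174 CPM in AXL KO, against 246, 219.6 and 254 CPM in WT. Rps26 (chr10:128624534-128626747) had 214, 207 and 231 CPM in AXL KO, against 288, 286 and 302 CPM in WT. In both the highest AXL KO library was below the lowest WT library. The log2 fold changes were -0.43 ± 0.079 (SE; edgeR adjusted p = 0.00314) for Rps29 and -0.42 ± 0.072 (SE; edgeR adjusted p = 0.00229) for Rps26. Rps12 (chr10:23785183-23787275), a head protein, had 224, 224 and 208 CPM in AXL KO, against 303, 270.5 and 289 CPM in WT. The groups did not overlap, and the log2 fold change was -0.40 ± 0.074 (SE; edgeR adjusted p = 0.0037). The other small-subunit members that were lower were Rps7 (-0.35), Rps15 (-0.32) and Rps24 (-0.32), with adjusted p of 0.00953, 0.00607 and 0.0103 from the same edgeR test.

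Among large-subunit proteins, Rpl36, Rpl8 and Rplp2 had the largest decreases. Rpl8 (chr15:76904078-76906314) encodes a protein next to the catalytic centre that joins amino acids, and Rpl36 (chr17:56613416-56614243) another protein of the large subunit. Rpl36 had 165, 169 and 142 CPM in AXL KO, against 248, 244 and 241 CPM in WT. Rpl8 had 562, 560.3 and 529.9 CPM in AXL KO, against 857, 788 and 876 CPM in WT. The groups were far apart in both, with AXL KO 3 lowest. Log2 fold changes were -0.62 ± 0.082 (SE; edgeR adjusted p = 0.000683) for Rpl36 and -0.61 ± 0.074 (SE; edgeR adjusted p = 0.000421) for Rpl8. Rpl8 shares 7.86% of its 50-base windows with 1 other gene, whereas Rpl36 shares 81.1%, and among the small-subunit members above Rps10 shares 92.4%, Rps18 86.7% and Rps28 75.7%.

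The stalk of the large subunit, which recruits the elongation factors, is built of Rplp0 with Rplp1 and Rplp2, and the mRNAs of these 3 partners gave different estimates. Rplp2 (chr7:141447370-141451585) had 240.2, 258 and 203 CPM in AXL KO, against 336, 310.1 and 326 CPM in WT. AXL KO 3 was lowest and the groups did not overlap, with a log2 fold change of -0.47 ± 0.096 (SE; edgeR adjusted p = 0.00526). Rplp1 (chr9:61913284-61914542) had 564, 556 and 554 CPM in AXL KO, against 594, 489 and 530.1 CPM in WT. These groups overlapped, and the log2 fold change was 0.05 ± 0.084 (SE; edgeR adjusted p = 0.642). Rplp0 (chr5:115559467-115563727), the member with the most counts of the large subunit, had 1276, 1191 and 1214 CPM in AXL KO, against 1377, 1289 and 1344 CPM in WT. Its AXL KO libraries were all below its WT libraries, but its log2 fold change of -0.12 ± 0.070 (SE; edgeR adjusted p = 0.195) did not pass the test. The differences between the 3 fold changes were not tested. Rpl12, at the base of the stalk, was lower, with a log2 fold change of -0.31 ± 0.083 (SE; edgeR adjusted p = 0.0174).

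Rpl10 (chrX:74270812-74273135), which joins the large subunit late in its assembly, had 497, 505 and 449 CPM in AXL KO, against 606, 644 and 668 CPM in WT. Rpl37 (chr15:5116645-5119140), a zinc-binding protein, had 161, 163 and 160.4 CPM in AXL KO, against 215, 214 and 221 CPM in WT. In both the groups stood apart by more than the spread within them. On the log2 scale the changes were -0.40 ± 0.078 (SE; edgeR adjusted p = 0.00423) for Rpl10 and -0.42 ± 0.064 (SE; edgeR adjusted p = 0.00122) for Rpl37. Rpl41, which encodes the shortest ribosomal protein, was the member with the highest level per length in WT: it had 1081 CPM per kb of transcript in AXL KO and 1393 CPM per kb in WT, and a log2 fold change of -0.36 ± 0.086 (SE; edgeR adjusted p = 0.0105). By the same measure Rplp1 came first in AXL KO (1118 CPM per kb, against 1077 CPM per kb in WT), followed by Rps14 (1107 CPM per kb in AXL KO and 1148 CPM per kb in WT). The remaining large-subunit members that were lower were Rpl7l1, Rpl27a, Rpl7, Rpl37a, Rpl10a, Rpl30, Rpl14, Rpl32 and Rpl9, with log2 fold changes of -0.39 to -0.22.

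**Figure D3:**
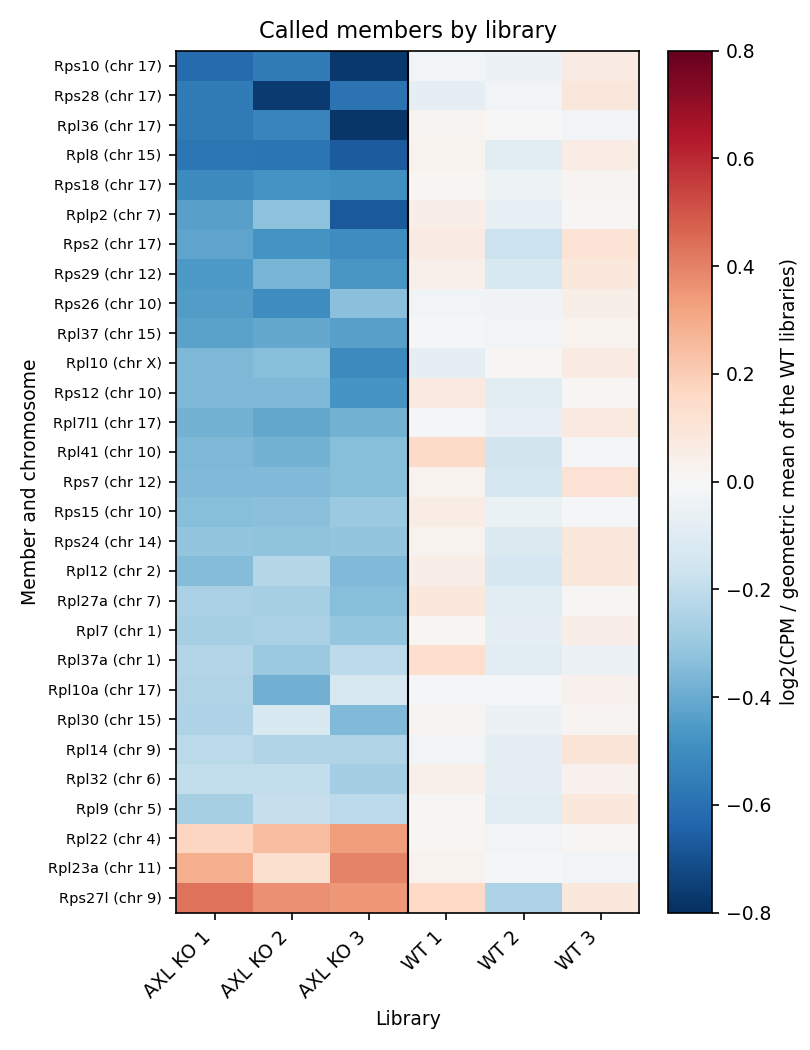
Level of the 29 called members (rows, with their chromosome) in each library (columns, AXL KO left of the line and WT right of it), as log2 of CPM over the geometric mean of the WT libraries; blue is lower and red higher. Among the 26 lower members WT 2 is the lowest of its group in 22, and Rps27l, Rpl23a and Rpl22 at the foot are higher in all 3 AXL KO libraries.

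Several of the most counted and best studied members did not pass the test. Rps4x, the small-subunit member with the most counts, had 798, 794 and 825 CPM in AXL KO, against 935, 861 and 964 CPM in WT. The groups did not overlap, and the log2 fold change was -0.19 ± 0.073 (SE; edgeR adjusted p = 0.067). Rpsa, also known as the laminin receptor precursor, had 559, 591 and 575 CPM in AXL KO, against 646, 580.4 and 675 CPM in WT. AXL KO 2 was above WT 2, and the log2 fold change was -0.14 ± 0.078 (SE; edgeR adjusted p = 0.19). Rpl4, which lines the exit tunnel of the large subunit, had 1081, 1056 and 1064 CPM in AXL KO, against 1062, 1023 and 1116 CPM in WT. Its mean levels were 1067 ± 12.7 CPM in AXL KO and 1067 ± 46.5 CPM in WT (SD, n = 3 each). Rpl5 and Rpl11, which with 5S rRNA bind Mdm2 when ribosome assembly fails, had log2 fold changes of -0.09 ± 0.071 (SE; edgeR adjusted p = 0.326) and 0.10 ± 0.074 (SE; edgeR adjusted p = 0.293). Neither passed, and the 2 estimates had opposite signs.

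Only 3 members were higher in AXL KO at the threshold. Rps27l (chr9:66946086-66949516), a copy of Rps27 that p53 induces in human cells, had 401, 383 and 379 CPM in AXL KO, against 332, 251 and 316 CPM in WT. WT 2 was well below the other WT libraries, and every AXL KO library was above every WT library. The log2 fold change was 0.37 ± 0.105 (SE; edgeR adjusted p = 0.0225), 1.29-fold higher. Rpl22 (chr4:152325742-152334071), which is needed for the development of alpha-beta T cells in mice, had 204, 215 and 228 CPM in AXL KO, against 183, 179 and 182 CPM in WT. Rpl22 did not overlap between groups, and its log2 fold change was 0.25 ± 0.070 (SE; edgeR adjusted p = 0.0206). Rpl23a (chr11:78180932-78183584), at the mouth of the exit tunnel, had 348, 311 and 373 CPM in AXL KO, against 289, 282 and 280.1 CPM in WT. Rpl23a did not overlap between groups, and its log2 fold change was 0.28 ± 0.082 (SE; edgeR adjusted p = 0.0267). Each of these 3 calls was lost without certain libraries. Without AXL KO 3 the edgeR adjusted p was 0.0538 for Rps27l, 0.0921 for Rpl22 and 0.109 for Rpl23a. Without AXL KO 1 the edgeR adjusted p was 0.0734 for Rps27l and 0.0822 for Rpl23a, and without WT 3 it was 0.0671 for Rpl22 and 0.091 for Rpl23a. Without WT 2 it was 0.0545 for Rpl23a.

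The copies are set beside the genes they copy, and the differences between their fold changes were not tested. Rps27 (chr3:90212522-90213651) had 61.3, 57.1 and 65.6 CPM in AXL KO, against 56.8, 60.1 and 63.2 CPM in WT. Its groups overlapped, and its log2 fold change was 0.03 ± 0.082 (SE; edgeR adjusted p = 0.792). Per kb of transcript, Rps27l had 776.8 CPM in AXL KO and 600.3 CPM in WT, and Rps27 had 177.9 CPM in AXL KO and 174 CPM in WT. The coding sequences of the pair (GENCODE M21, GRCm38, without the stop codon) are shown because they bear on whether reads of the 2 genes can be kept apart; differing bases are in capitals.
Rps27: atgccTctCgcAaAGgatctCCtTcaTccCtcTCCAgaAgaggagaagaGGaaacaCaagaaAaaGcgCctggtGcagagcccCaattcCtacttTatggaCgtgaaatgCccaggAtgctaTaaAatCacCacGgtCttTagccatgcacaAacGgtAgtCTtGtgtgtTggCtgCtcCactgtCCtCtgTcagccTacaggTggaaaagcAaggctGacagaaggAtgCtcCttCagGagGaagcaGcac
Rps27l: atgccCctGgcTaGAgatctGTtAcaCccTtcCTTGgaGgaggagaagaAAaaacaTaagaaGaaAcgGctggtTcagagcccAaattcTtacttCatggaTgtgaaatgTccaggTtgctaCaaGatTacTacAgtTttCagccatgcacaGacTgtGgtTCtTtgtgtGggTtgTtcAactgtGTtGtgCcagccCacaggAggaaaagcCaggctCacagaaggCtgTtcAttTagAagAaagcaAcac
The 2 sequences of 252 bases differ at 60 positions (76.2% identical), and the longest stretch they share is 11 bases. Of the 50-base windows of the transcripts, however, Rps27 shares 98.6% with transcripts of 9 other genes and Rps27l shares 22.4% with 4, so the level of Rps27 may depend on how reads of its copies were counted.

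**Figure D4:**
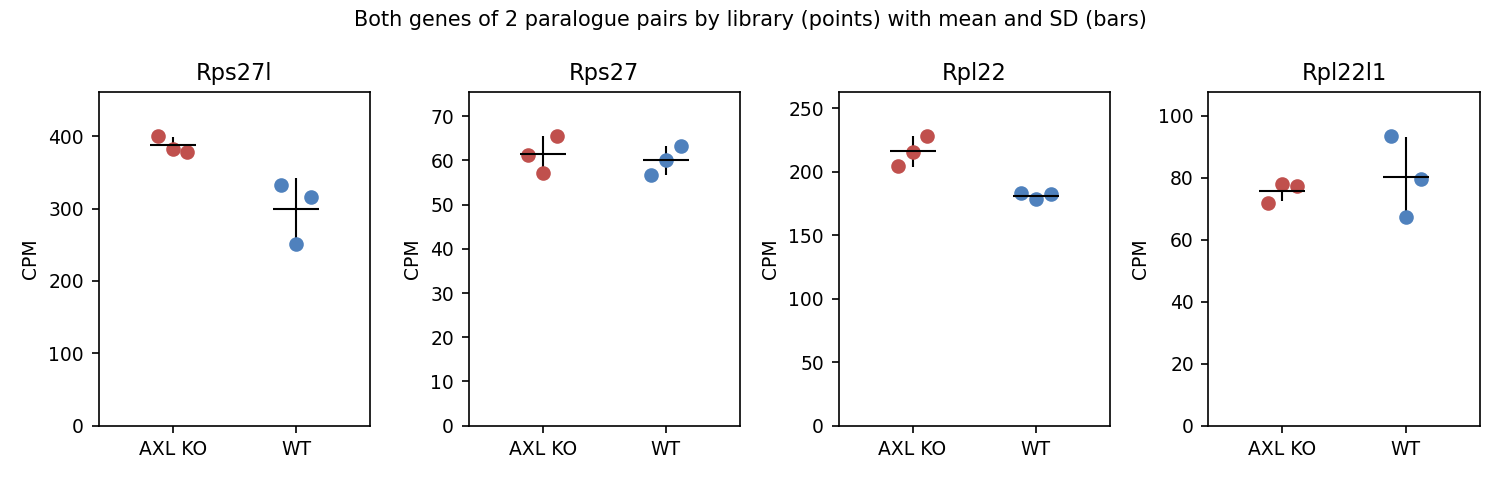
CPM (vertical axes, each from 0) of Rps27l and Rps27 and of Rpl22 and Rpl22l1 in the AXL KO (red, left) and WT (blue, right) libraries; points are libraries, the wide dash is the mean and the vertical line the SD (n = 3). Rps27l and Rpl22 are higher in every AXL KO library than in any WT library, while the groups overlap for Rps27 and Rpl22l1.

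Rpl22l1, the copy of Rpl22, had 71.8, 77.9 and 77.4 CPM in AXL KO, against 93.6, 67.3 and 79.5 CPM in WT. WT libraries lay on both sides of all AXL KO libraries, and the log2 fold change was -0.08 ± 0.116 (SE; edgeR adjusted p = 0.61). Rpl7l1 (chr17:46773907-46782672) and Rpl7 (chr1:16101295-16104662) were both lower. Rpl7l1 had 92.8, 90.8 and 92.5 CPM in AXL KO, against 119, 115 and 127 CPM in WT. Rpl7 had 622, 623 and 602 CPM in AXL KO, against 755, 711 and 773 CPM in WT. The groups were apart in both. The log2 fold changes were -0.39 ± 0.071 (SE; edgeR adjusted p = 0.00314) for Rpl7l1 and -0.28 ± 0.069 (SE; edgeR adjusted p = 0.0132) for Rpl7. Rpl39l, a copy of Rpl39 known from the testis, had under 1 CPM in all 6 libraries and a log2 fold change of -0.61 ± 0.467 (SE; edgeR adjusted p = 0.329). Rpl39 had 169, 209 and 152 CPM in AXL KO, against 234, 197 and 212 CPM in WT. AXL KO 2 lay inside the WT range, and the log2 fold change was -0.28 ± 0.120 (SE; edgeR adjusted p = 0.0992). Of the genes that the untested copies resemble, Rpl10 is described above and Rpl3 had 364, 359.6 and 371 CPM in AXL KO, against 411, 398 and 440.1 CPM in WT. All AXL KO libraries of Rpl3 were below its WT libraries, and its log2 fold change of -0.19 ± 0.070 (SE; edgeR adjusted p = 0.0603) did not pass the test.

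The members' fold changes differed by chromosome and ran in the order of the other genes there. Chromosomes were grouped, after the data were seen, by the median log2 fold change of their other tested genes. On the 5 chromosomes with a median under -0.1 (10, 12, 14, 15 and 17), 17 of 20 members were lower and 0 were higher, with a member median of -0.39; of the other genes there, 35.3% were lower and their median was -0.22. On the 11 chromosomes with a median within 0.1 of 0, 8 of 43 members were lower and 0 higher with a median of -0.16, against 15.7% of other genes lower. On the 4 chromosomes with a median over 0.1 (4, 9, 11 and 13), 3 of 21 members were higher and 1 lower with a median of 0.001, against 34.8% of other genes higher and a median of 0.20.

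Chromosome 17 held 7 tested members, Rps10, Rps28, Rpl36, Rps18, Rps2, Rpl7l1 and Rpl10a, and all 7 were lower, with a median of -0.49; its 741 other tested genes had a median of -0.26 and 40.8% of them were lower. On chromosome 10, 4 of 4 tested members were lower (Rps26, Rps12, Rpl41 and Rps15), with a median of -0.20 over its other genes and 31.4% of them lower. On chromosome 12, 2 of 2 were lower (Rps29 and Rps7), with a median of -0.22 over its other genes and 35.2% of them lower. On chromosome 15, 3 of 4 were lower (Rpl8, Rpl37 and Rpl30), with a median of -0.29 over its other genes and 42.6% of them lower. The 3 higher members lay on chromosomes 4 (Rpl22), 9 (Rps27l) and 11 (Rpl23a), whose other genes had medians of 0.28, 0.20 and 0.18. Over the 19 chromosomes with members, the member median and the median of the other genes had a Pearson correlation of 0.842 and a Spearman correlation of 0.798; this describes these libraries, since all points share the same 6 libraries and some chromosomes hold only 2 members. Axl lies on chromosome 7 with 14 members, of which 2 were lower (Rplp2 and Rpl27a) and 0 higher. Of the other tested genes there, 18.8% were lower and 12.9% higher. Rps19, 0.873 Mb from Axl and the nearest member, had a log2 fold change of -0.10 ± 0.072 (SE; edgeR adjusted p = 0.314).

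**Figure D5:**
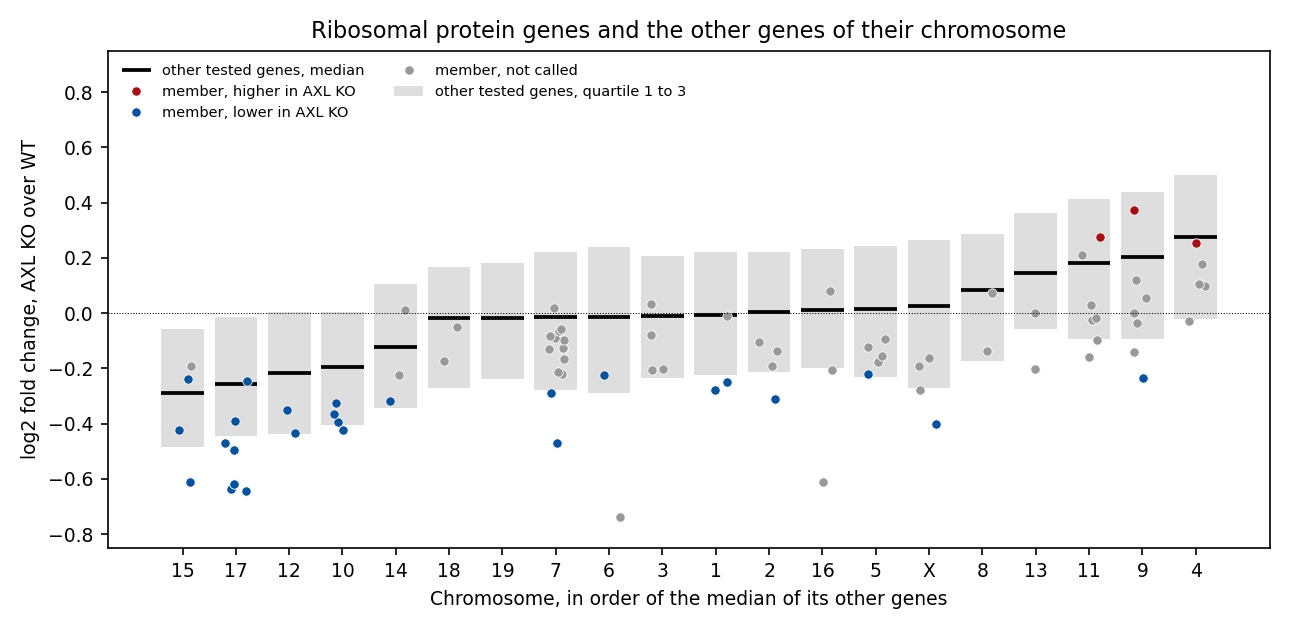
Log2 fold change of AXL KO over WT (vertical axis) of each tested member (points), by chromosome in order of the median of the chromosome's other tested genes (horizontal axis); black lines are those medians and grey boxes reach from quartile 1 to quartile 3. On 15, 17, 12 and 10 most members are lower (blue), the 3 higher members (red) lie on 11, 9 and 4, and 74 of 84 members lie below the line of their chromosome.

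With the median of each chromosome's other genes taken out in the fit, 19 members were lower and 0 were higher, against 15.1% and 14.9% of all tested genes, and the member median was -0.175. Of the members that were lower in the first fit, 14 stayed lower: Rpl10, Rpl12, Rpl14, Rpl27a, Rpl36, Rpl37a, Rpl7, Rpl8, Rpl9, Rplp2, Rps10, Rps18, Rps26 and Rps28. The other 12, among them Rps2, Rps29, Rps12, Rps7 and Rps24, no longer passed, and Rpl26, Rpl27, Rpl38 and Rpsa were among those lower in this fit alone. Rps27l had a log2 fold change of 0.17, Rpl23a of 0.09 and Rpl22 of -0.02 (edgeR adjusted p of 0.262, 0.42 and 0.832). Against their own chromosome, 74 of the 84 members lay below the median. What moves whole chromosomes in these libraries was not tested.

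Sequence shared with other genes touched most members. Of 80 tested members with a GENCODE M21 transcript under the same symbol, the median share of 50-base windows found in transcripts of other genes was 58.7%, with a range of 0% to 98.6%. Among the 51 members with at least 50% shared, 14 were lower and 1 higher with a median fold change of -0.16 (log2), and among the 29 with less, 12 were lower and 2 higher with a median of -0.21. Alignments that were not unique formed 26.1 ± 0.642% in AXL KO and 28.2 ± 0.828% in WT (SD, n = 3 each; exact permutation p = 0.1, two-sided, the smallest possible). Annotated pseudogenes of the members held 0.0605 ± 0.00228% of the counts in AXL KO and 0.0735 ± 0.00544% in WT. The part of these reads in the members' decrease was not tested, beyond the values given for members with little shared sequence.

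The symbols of the deposited table differ from GENCODE M21 for a few members. The entry listed as Rpl24 carries an identifier that GENCODE M21 names Zbtb11, a zinc-finger gene, and it had a log2 fold change of 0.08 ± 0.113 (SE; edgeR adjusted p = 0.606). The gene that GENCODE M21 names Rpl24 is listed as RPL24 and had 71.4, 65.6 and 76.1 CPM in the AXL KO libraries, against 83.5, 76.1 and 73.9 CPM in the WT libraries. Its groups overlapped, and its log2 fold change was -0.13 (edgeR adjusted p = 0.256). Rps3a2, Rps3a3 and Rps4y2 are annotated there as pseudogenes, and their log2 fold changes of 0.01, -0.20 and -0.74 did not pass the test. With members taken by the GENCODE M21 symbol and type there were 83 genes, of which 81 were tested, and 26 were lower and 3 higher with a median of -0.16.

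Ribosomal proteins whose symbols the rule does not reach were given by a list of 4. Rpl36al, a copy of Rpl36a, had 119, 117 and 109.8 CPM in AXL KO, against 172, 145 and 161 CPM in WT. Fau, which encodes Rps30 fused to a ubiquitin-like protein, had 203, 185 and 195 CPM in AXL KO, against 265, 247 and 247 CPM in WT. Both were lower, without overlap. Log2 fold changes were -0.47 ± 0.082 (SE; edgeR adjusted p = 0.00266) for Rpl36al and -0.38 ± 0.071 (SE; edgeR adjusted p = 0.0037) for Fau. Gnb2l1, now called Rack1, a scaffold on the small subunit, did not pass, with a log2 fold change of 0.16 ± 0.067 (SE; edgeR adjusted p = 0.0948).

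Other mRNAs of the TOP class and the elongation machinery were lower in part. Of 20 listed genes, 12 were lower and 0 higher, with a median of -0.24 on the log2 scale, against 18.3% lower over all tested genes. Tpt1, a translationally controlled tumour protein and a classical TOP mRNA, had 1108, 1070 and 1039 CPM in AXL KO, against 1456, 1625 and 1631 CPM in WT. It was 1.47-fold lower, with a log2 fold change of -0.55 ± 0.076 (SE; edgeR adjusted p = 0.000848). Eif3l, a subunit of initiation factor 3, had 138, 133 and 136 CPM in AXL KO, against 182, 177 and 196 CPM in WT. Naca, which binds nascent chains, had 284, 299 and 290.2 CPM in AXL KO, against 382, 358 and 376 CPM in WT. Neither overlapped between groups. On the log2 scale the changes were -0.44 ± 0.070 (SE; edgeR adjusted p = 0.00164) for Eif3l and -0.35 ± 0.068 (SE; edgeR adjusted p = 0.00394) for Naca. Among the elongation factors of the list, Eef1d, Eef1g and Eef1b2 were lower, by -0.34, -0.26 and -0.22 (edgeR adjusted p of 0.00587, 0.0214 and 0.0499). Eef2 at -0.14 and Eef1a1 at 0.08 did not pass (edgeR adjusted p of 0.306 and 0.411). Of the 12, 9 lay on the 5 chromosomes with low medians. With chromosome medians taken out, 4 of the 20 were lower, against 15.1% of all tested genes. Without AXL KO 1, without AXL KO 3 or without WT 3, 7 were called.

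Initiation factors outside that list were mixed, with 6 of 29 lower, 2 higher and a median of -0.07. That is 20.7% lower and 6.9% higher, against 18.3% and 19.1% of all tested genes. Eif5, the GTPase activator of the initiator complex, was lower, with a log2 fold change of -0.61 ± 0.080 (SE; edgeR adjusted p = 0.00064). Eif3d, an initiation factor 3 subunit that binds the cap, was lower too, with a log2 fold change of -0.43 ± 0.068 (SE; edgeR adjusted p = 0.00153). Eif4g3, a scaffold of the cap-binding complex, was higher, with a log2 fold change of 0.43 ± 0.082 (SE; edgeR adjusted p = 0.00364). Eif1, which guides start codon choice, was lower, with a log2 fold change of -0.41 ± 0.081 (SE; edgeR adjusted p = 0.00484). With chromosome medians taken out, 4 were lower and 0 higher.

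Genes that regulate TOP mRNAs and the kinases that phosphorylate Rps6 went the other way in part: 7 of 21 were higher and 2 lower, with a median of 0.10, against 19.1% higher over all tested genes. The genes of this list do not all act on TOP mRNAs in the same direction. Rps6kb1, the S6 kinase, had 105, 97.5 and 101 CPM in AXL KO, against 64.5, 68.1 and 64.1 CPM in WT. Rps6ka1, an S6 kinase of the RSK family, had 118, 121 and 138 CPM in AXL KO, against 60.3, 79.1 and 73.2 CPM in WT. Both separated the groups, 1.54-fold and 1.77-fold higher. The log2 fold changes were 0.62 ± 0.071 (SE; edgeR adjusted p = 0.000327) for Rps6kb1 and 0.83 ± 0.112 (SE; edgeR adjusted p = 0.000742) for Rps6ka1. Tia1, which represses TOP mRNAs in starved human cells, and Rptor, the mTOR partner that defines complex 1, were higher as well. Log2 fold changes were 0.34 ± 0.068 (SE; edgeR adjusted p = 0.00519) for Tia1 and 0.47 ± 0.105 (SE; edgeR adjusted p = 0.00803) for Rptor. The remaining higher genes were Larp1, Mtor and Tsc1, at 0.40, 0.51 and 0.31 (edgeR adjusted p of 0.012, 0.0162 and 0.04). The 2 lower genes were Eif4ebp1 and Rps6ka2, at -0.47 and -0.55 (edgeR adjusted p of 0.0193 and 0.0223). All 5 tested genes of this list on the 4 chromosomes with high medians were higher; 6 genes were higher with chromosome medians taken out, and 4 without WT 3. The genes lower were 1 without AXL KO 1 and 0 without AXL KO 3, WT 2 or WT 3. Rps6 itself, the substrate, had 206, 211 and 205 CPM in AXL KO, against 196, 182 and 201 CPM in WT. All AXL KO libraries were above all WT libraries, but the log2 fold change of 0.10 ± 0.069 (SE; edgeR adjusted p = 0.285) did not pass the test. Phosphorylation of Rps6 was not measured.

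Myc drives transcription of ribosomal protein and biogenesis genes. The list of its network, whose genes do not all act as Myc does, had 4 of 12 genes higher (Mycl, Mlx, Mxd1 and Zbtb17) and 3 lower. The median was 0.05. That is 33.3% higher and 25% lower, against 19.1% and 18.3% of all tested genes. Myc had 60.4, 50 and 52.9 CPM in AXL KO, against 69.8, 69.8 and 80.3 CPM in WT. The groups did not overlap, and the log2 fold change was -0.43 ± 0.097 (SE; edgeR adjusted p = 0.00879). Mycn had 0.602, 2.53 and 1.08 CPM in AXL KO, against 9.57, 7.28 and 5.37 CPM in WT. It was 5.18-fold lower, with a log2 fold change of -2.37 ± 0.425 (SE; edgeR adjusted p = 0.00297). Mycl, at a low level, was 2.02-fold higher, with a log2 fold change of 1.02 ± 0.237 (SE; edgeR adjusted p = 0.00986). Max, their common partner, was lower, with a log2 fold change of -0.28 ± 0.071 (SE; edgeR adjusted p = 0.013). The genes lower, Myc, Mycn and Max, lay on chromosomes 15 and 12, which had low medians, and 1 gene was lower and 2 higher with chromosome medians taken out. Without AXL KO 1 or without AXL KO 3, 1 gene was higher.

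Genes for making rRNA and for assembling ribosomes were split. RNA polymerase I and its factors had 3 of 15 lower (Cd3eap, Znrd1 and Polr1c) and 0 higher, or 20% lower, against 18.3% of all tested genes. With chromosome medians taken out, 1 was lower. Ribosome biogenesis factors had 13 of 97 lower and 10 higher with a median of -0.03, or 13.4% lower, against 18.3% of all tested genes. Nol10, a factor of small-subunit assembly, had 18, 20.1 and 16.8 CPM in AXL KO, against 32.2, 29 and 34.7 CPM in WT. Gnl2, a GTPase of large-subunit assembly, had 42.6, 44.2 and 44.8 CPM in AXL KO, against 30.9, 33.5 and 32.4 CPM in WT. Neither overlapped between groups. On the log2 scale the changes were -0.81 ± 0.104 (SE; edgeR adjusted p = 0.000613) for Nol10 and 0.44 ± 0.073 (SE; edgeR adjusted p = 0.002) for Gnl2. Of the 13 lower, 10 lay on the 5 chromosomes with low medians, and all 10 higher lay on the 4 with high medians; with chromosome medians taken out, 4 were lower and 0 higher. The genes lower came to 8 without AXL KO 1, 8 without AXL KO 3 and 7 without WT 3, and those higher to 5 without AXL KO 3. Chaperones and importers of ribosomal proteins had 1 of 15 higher and 2 lower, or 6.67% and 13.3%, against 19.1% and 18.3% of all tested genes. They had 0 to 1 higher and 1 to 2 lower when 1 library was left out, and 1 higher and 0 lower with chromosome medians taken out. The higher one was Ipo7, an import receptor, and the lower ones were Pdcd2, a chaperone of Rps2, and Ipo4.

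Genes that link disturbed ribosome assembly to p53, and known targets of p53, had 5 of 13 higher and 0 lower, with a median of 0.14. That is 38.5% higher, against 19.1% of all tested genes. Eda2r, a p53 target of the TNF receptor family, had 19.3, 18.1 and 20.2 CPM in AXL KO, against 1.44, 1.73 and 1.64 CPM in WT. Ccng1, a p53 target cyclin, had 200.1, 197 and 203 CPM in AXL KO, against 93.2, 110.1 and 109 CPM in WT. Every AXL KO library was far above every WT library in both, 11.9-fold for Eda2r and 1.92-fold for Ccng1. The log2 fold changes were 3.58 ± 0.133 (SE; edgeR adjusted p = 1.79e-06) for Eda2r and 0.94 ± 0.082 (SE; edgeR adjusted p = 7.85e-05) for Ccng1. Pml and Zmat3 were higher too. Log2 fold changes were 0.73 ± 0.090 (SE; edgeR adjusted p = 0.000468) for Pml and 0.70 ± 0.110 (SE; edgeR adjusted p = 0.00156) for Zmat3. The remaining higher gene was Mdm4, which acts against p53, with a log2 fold change of 0.52 ± 0.137 (SE; edgeR adjusted p = 0.0165). The genes of this list do not all act in the same direction, so the number higher is not a count of induced p53 targets. The known p53 targets Cdkn1a, Mdm2, Bbc3 and Sesn1 did not pass, with log2 fold changes of 0.02, -0.02, -0.10 and -0.002 (edgeR adjusted p of 0.954, 0.869, 0.475 and 0.986). With chromosome medians taken out 5 of the list were higher and 1 lower, and 4 to 6 were higher when 1 library was left out. Genes of ribosome rescue and collision sensing had 3 of 16 higher (Ascc2, Ascc3 and Zak) and 2 lower (Nemf and Zfp598). That is 18.8% higher and 12.5% lower, against 19.1% and 18.3% of all tested genes. The genes lower came to 1 when any of the AXL KO libraries, WT 2 or WT 3 was left out and to 0 with chromosome medians taken out.

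The ribosomal proteins of mitochondria, which build a separate ribosome from the same cell's nuclear genes, had 12 of 76 lower and 2 higher with a median of -0.06. That is 15.8% of them lower, against 31% of the cytosolic members and 18.3% of all tested genes. The share higher was 2.63%, against 3.57% of the cytosolic members and 19.1% of all tested genes, so few increases were seen in both families. Mrps34 had 29.1, 26.3 and 24.3 CPM in AXL KO, against 40.5, 37.4 and 42.1 CPM in WT. It did not overlap between groups, and its log2 fold change was -0.59 ± 0.092 (SE; edgeR adjusted p = 0.00152). Mrps18b and Mrpl28 had log2 fold changes of -0.54 and -0.54, and all 3 lie on chromosome 17. Of the 12 lower genes, 10 lay on the 5 chromosomes with low medians, where 14 of the family were tested, and both higher ones on the 4 with high medians. The genes lower came to 7 without AXL KO 3 and 8 with chromosome medians taken out; the genes higher were 0 without AXL KO 3, 1 without AXL KO 1, WT 2 or WT 3 and 6 without WT 1.

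The split of these lists depended on the scaling. With the summed counts of the members as the library size, 30.5% of all tested genes were higher and 10.2% lower. The counts of each list stand beside these shares. Of 20 genes in the TOP list, 1 was higher and 3 lower. Of 29 initiation factors, 5 were higher and 3 lower, and of 21 TOP regulators and S6 kinases, 8 and 0. On the same scale 4 of 12 were higher and 1 lower in the Myc network, and 4 of 15 higher and 2 lower for RNA polymerase I. Of 97 biogenesis factors, 26 were higher and 5 lower. Chaperones and importers had 4 of 15 higher and 1 lower, and the p53 list 7 of 13 higher and 0 lower. Rescue factors had 8 of 16 higher and 0 lower, and mitochondrial ribosomal proteins 16 of 76 higher and 7 lower. The 4 ribosomal proteins outside the rule had 1 higher and 2 lower.

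Of 10621 protein-coding genes outside the members and lists, the 5 whose log2 CPM over the 6 libraries ran most like the mean of the members were Zfp53 (Pearson correlation 0.9989), Actb (0.9967), Tmem141 (0.9964), Bpgm (0.9961) and Yeats4 (0.9961). With 6 libraries in 2 groups such values describe these libraries only. Actb, cytoplasmic actin, averaged 974.6 CPM in AXL KO and 1330 CPM in WT, with a log2 fold change of -0.45. The mean log2 CPM of the tested members was 7.81, 7.83 and 7.80 in the AXL KO libraries, against 8.04, 7.90 and 8.02 in the WT libraries. Within groups, the median coefficient of variation over the 82 members above 1 CPM was 3.16% in AXL KO and 5.82% in WT. Of the 82, 59 varied less among the AXL KO libraries. These members are not independent of each other, since WT 2 was the lowest WT library in 72 of the 84 tested members. The coefficients were not compared with those of all tested genes.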

How the data were processed

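RNA of 6 tumour grafts was extracted with Trizol and cleaned on RNeasy columns, per the labels. The submitters' processing notes name CASAVA 1.8, TopHat2 2.0.10, HTSeq 0.5.3, DESeq2 1.4.5 and the build GRCm38; settings and strand are not given. Per library, the deposited files hold raw counts for 39179 gene identifiers and 5 lines that name no gene. Those lines were left out: not unique 25.7% to 29.0%, no feature 4.41% to 6.88% and ambiguous 0.717% to 1.09% of all counted lines. Without a statement on strand, overlapping and antisense genes may share reads. The authors' deposited table of the whole series gives log2 fold changes, p-values and adjusted p-values of their own test, and normalized values (signal) that equal the deposited counts divided by size factors. It supplied symbols, gene types and the calls credited to it.

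From the counts, edgeR 4.0.16 (R 4.3.3) fitted the quasi-likelihood test of AXL KO against WT over all 14850 genes that passed filterByExpr (minimum count 10, minimum total 15), with TMM scaling and Benjamini-Hochberg adjustment; a gene was called at an adjusted p below 0.05. Fold changes are AXL KO over WT. CPM values use TMM-scaled library sizes. Single values per library were compared by an exact two-sided permutation test, whose smallest p is 0.1. The calling step was tested on simulated data. Positions, gene types and transcripts came from GENCODE M21, which holds 37607 of the identifiers, and promoter windows from RefSeq. Libraries were grouped by title. Alternatives covered the scaling, the test (DESeq2 1.42.0, limma-voom 3.58.1), the filter, the replicate block and each library left out; the fit with chromosome medians removed and the membership by GENCODE M21 were added after seeing the data. Per-kb levels divide by 1 coding transcript per gene. Pairs of libraries differed beyond sampling noise in every group, so each counted as 1 sample.

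The members and gene lists were chosen with earlier results of these data known. Members named with values were the 12 largest changes in either direction among those called, the stalk proteins and Rpsa, copies with the gene they copy, the most counted member of each subunit and those not tested, plus up to 4 genes of smallest p per list. Rpl4, Rpl5, Rpl11, Rpl41, Rpl12, Rps6, Rps19, Cdkn1a, Mdm2, Bbc3, Sesn1, Eef1d, Eef1g, Eef1b2, Eef2 and Eef1a1 were named after their values were seen. So were Mdm4, Larp1, Mtor, Tsc1, Eif4ebp1 and Rps6ka2. Some single-gene results are not reported here.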

Additional observations from a re-analysis of the deposited data

How the results depend on the processing

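Members lower numbered 16 to 34 and members higher 0 to 4 when 1 library was left out, with the member median at -0.195 to -0.139 and the difference in the share of counts at -0.493 to -0.317 percentage points. Over all tested genes, 1733 to 2828 were lower and 2000 to 2846 higher in these fits. Scaled on the summed counts of the members, 12 were lower and 9 higher and the median was 0, which follows from the construction. At an adjusted p below 0.01, 15 were lower and 0 higher, and the share of all tested genes at that threshold is not given here. With chromosome medians removed 0 were higher, and 3 of the 29 called members changed sign: Rpl22 to -0.023, Rpl10a to 0.009 and Rpl30 to 0.05. With the replicate block 1 member was higher and 19 were lower, and of all tested genes 2458 were higher and 2373 lower. The deviations of same-numbered libraries had correlations of -0.058, -0.125 and 0.088, so the numbers were not taken to pair them. With that block the TOP list had 7 genes lower. Of the 29 called members, 29 were called with DESeq2 size factors, upper-quartile factors, TMM without the members, the DESeq2 Wald test, limma-voom and a floor on mean log2 CPM of 2, and with pseudogenes added; 23 were called with no filter, where 21716 genes were tested. The cause of the other differences was not tested. Rpl3l and Rpl10l had too few counts to test, so a change in them was not detectable at this depth.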
